A study of Sus scrofa with 12 samples.

Results

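The genes described here are 34 genes of cholesterol and fatty acid synthesis, together with SREBF2, the transcription factor that drives the sterol branch, and their levels were compared between mesenchymal stromal/stem cells (MSCs) and the extracellular vesicles (EVs) these cells released. The genes were chosen with the EV-to-MSC results of these libraries known, so their differences between EVs and MSCs are given as a description and carry no p-value. They were found in the mRNA count table by gene symbol or by pig Ensembl identifier, and the row with the most reads was taken for each symbol. Of the 34 genes, 32 had a row among the 29658 rows used, and MVD and ELOVL6 had none. They fall into 5 regulators, 16 enzymes of sterol synthesis, 4 genes of sterol transport and 9 genes of fatty acid synthesis.

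The study asked which RNAs are enriched in EVs relative to their parent cells. MSCs were grown from the abdominal fat of 3 female domestic pigs aged 3 months, cultured with platelet lysate and used at passage 3, and their culture medium was ultracentrifuged to obtain EVs, which yields a mixture of vesicle types. No treatment or gene modification separated the groups, which were 3 MSC and 3 EV libraries of mRNA, paired by pig, and 3 MSC and 3 EV libraries of small RNA. The replicate number is the number in the mRNA titles and is taken to stand for 1 pig.

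Cells hold their sterol supply steady through the SREBP proteins, which are made as membrane-bound precursors. SCAP escorts the precursor from the endoplasmic reticulum when sterols are low, the INSIG proteins hold SCAP back when sterols are plentiful, and the released fragment enters the nucleus and switches on lipid genes. SREBF2 (encoding SREBP-2) mainly acts on sterol synthesis, and SREBF1 (encoding SREBP-1) mainly on fatty acid synthesis. Sterol excess acts the other way through the LXR receptors, which induce the cholesterol exporter ABCA1.

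Library depth was even across the mRNA libraries, at 10429085 to 12276855 counted reads, and scaling factors ran from 0.852 (MSC replicate 2) to 1.14 (EV replicate 1). Levels are given below as CPM, read counts relative to library size after TMM normalization, a scaling that assumes most genes do not differ, so each value is a share of its library. A lower share in EVs cannot be told apart from fewer vesicles that carry the transcript or less of it in each vesicle. Of the 9 MSC markers looked up, 6 had reads, with a summed level of 17969 to 36566 CPM in MSCs and 14955 to 29679 CPM in EVs, while THY1 (CD90), which defines these cells, and the stromal collagen COL1A2 were at 0 reads in every library and COL1A1 had no row.

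Not every gene of the group could be measured. In all, 27 had at least 1 read, and 23 passed the filter on low counts and entered the fit. SCAP, INSIG1, PMVK, STARD4 and NPC1 were listed at 0 reads in all 6 libraries, and each of these 5 rows lies almost wholly within the span of another row of the table. NPC2, FASN, ACLY and ACSS2 had 12 to 53 reads over all libraries and stayed under the filter. Other rows cover 96.95% to 100% of the spans of these genes. Of the 23 genes that passed, 9 had no other row over them (SREBF2, IDI1, LSS, DHCR7, MVK, SC5D, TM7SF2, ABCA1 and ELOVL5), and the other 14 share part or all of their span with another row. For HMGCS1, SQLE, FDFT1, FDPS, MSMO1, HSD17B7, SCD, FADS1 and FADS2 a covering row carries the gene's own symbol, and for CYP51A1 it is named CYP51. How reads on shared stretches were assigned is not stated in the sources used here. The levels of those 14 are therefore uncertain, and a low count there need not mean low expression.

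Among the 23 genes, 14 were more than 2-fold lower in EVs at an unadjusted p-value under 0.05, the thresholds of the study, and 1 was higher. Over all 12392 entries tested with edgeR, 3.57% were lower and 5.55% higher by the same thresholds. None of the 23 genes, and 0% of all entries, passed after Benjamini-Hochberg adjustment, while 1978 entries and 15 of the 23 genes passed 0.05 without adjustment. With the pig as a block in the edgeR fit, 10 of the genes were lower and 1 higher after adjustment, against 0.605% and 0.492% of all entries. DESeq2 gave 9 lower and 1 higher after adjustment, against 1.50% and 2.09% of all entries. Every EV library lay below every MSC library for 11 of the genes and for 13.6% of all entries, and above for 1 gene and for 14.3% of all entries. Since the genes were selected on this contrast, the counts describe the group and test nothing.

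**Figure D1:**
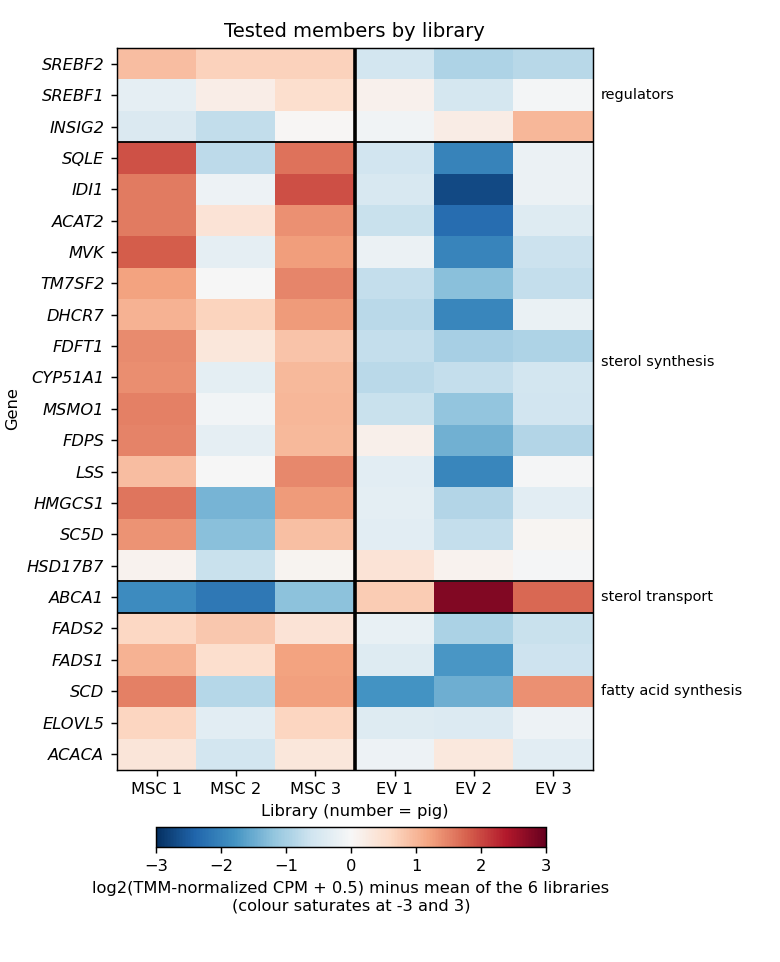
Heat map of the 23 tested genes (rows, by role) in the 6 mRNA libraries (columns, numbered by pig). Colour gives log2(TMM-normalized CPM + 0.5) minus the mean of the 6 libraries, from blue (lower) to red (higher). Most sterol synthesis genes are red in MSC replicates 1 and 3, pale in MSC replicate 2 and blue in EVs, and ABCA1 shows the opposite colours.

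SREBF2 was the most evenly lower of the regulators. It maps to an unplaced scaffold of the pig build susScr3 (GL894144-1, positions 439 to 34441) and had 252, 212 and 214 CPM in MSC replicates 1, 2 and 3 and 90.4, 69.6 and 74.0 CPM in EV replicates 1, 2 and 3. The groups did not overlap, and the ratio was alike in the 3 pigs, at log2 values of -1.48, -1.60 and -1.52. Means were 226 ± 22.8 CPM in MSCs and 78.0 ± 11.0 CPM in EVs (SD, n = 3), a log2 fold change of -1.54 ± 0.23 (SE), or 2.90-fold lower in EVs.

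The other measured regulators did not share that pattern. SREBF1 had 20.8, 28.6 and 35.3 CPM in MSCs and 27.5, 17.3 and 24.0 CPM in EVs. Its groups overlapped, pig 1 had the higher value in EVs, and the log2 fold change was -0.30 ± 0.30. INSIG2, a retention protein for SCAP, had 3.64, 2.87 and 5.17 CPM in MSCs and 4.73, 6.01 and 10.7 CPM in EVs. EVs had more of it than MSCs in each of the 3 pigs, although the groups overlapped, with a log2 fold change of 0.87 ± 0.44. The INSIG2 row is covered over its whole span by another row, so its 377 reads may not all be its own.

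**Figure D2:**
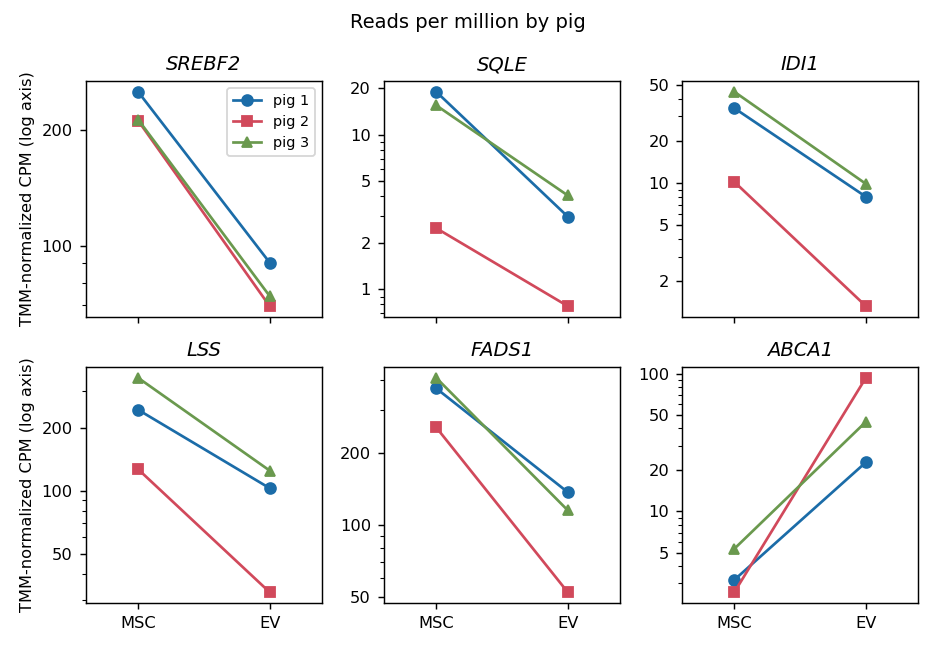
TMM-normalized CPM (log axes) of 6 genes in MSCs and EVs, with 1 line per pig. SREBF2 lines run nearly together, SQLE, IDI1 and LSS lie lower in pig 2 in both MSCs and EVs, and ABCA1 is above its MSC level in EVs of all 3 pigs.

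The sterol synthesis branch builds cholesterol from acetyl-CoA through mevalonate, isoprenoid pyrophosphates, squalene and lanosterol. Of its 16 enzymes 14 were tested, and 11 of them were past the thresholds of the study in the lower direction, with none in the higher direction. Over all entries the shares were 3.57% and 5.55%. Their log2 fold changes ran from -2.25 to 0.31 with a median of -1.84, while the median over all entries tested was -0.02. Without MSC replicate 1 or without MSC replicate 3 the count of 11 dropped to 7, and SQLE, LSS and FDPS were then no longer past the thresholds in either case.

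In the steps up to mevalonate, ACAT2, which joins acetyl-CoA units, had 127, 56.9 and 112 CPM in MSCs and 26.7, 8.36 and 32.8 CPM in EVs. The groups did not overlap and the log2 fold change was -2.12 ± 0.53. HMGCS1, the synthase of the next condensation, had 76.7, 9.09 and 60.1 CPM in MSCs and 20.1, 13.2 and 19.7 CPM in EVs. The low MSC value of pig 2 placed its EVs above its cells by 0.51 on the log2 scale, against -1.91 and -1.58 in pigs 1 and 3, and HMGCS1 did not pass the thresholds (log2 fold change -1.46 ± 0.67). MVK, the mevalonate kinase, had 46.0, 10.4 and 31.1 CPM in MSCs and 11.3, 2.89 and 7.99 CPM in EVs. Its groups overlapped narrowly, yet the 3 pigs had similar log2 ratios of -1.98, -1.69 and -1.90.

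In the isoprenoid steps, IDI1, the isomerase of isopentenyl pyrophosphate, had 34.4, 10.2 and 45.0 CPM in MSCs and 8.02, 1.33 and 9.91 CPM in EVs (log2 fold change -2.22 ± 0.78). FDPS, which makes farnesyl pyrophosphate, had 17.7, 4.88 and 12.3 CPM in MSCs and 6.67, 1.88 and 3.04 CPM in EVs (log2 fold change -1.59 ± 0.62). IDI1 kept its groups apart and FDPS did not, and both were lower in EVs than in cells of the same pig in all 3 pigs.

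Squalene is made and closed into lanosterol by the next 3 enzymes. FDFT1, the squalene synthase, had 42.8, 19.9 and 29.0 CPM in MSCs and 9.46, 7.66 and 8.09 CPM in EVs, without overlap (log2 fold change -1.86 ± 0.34). SQLE, the squalene epoxidase, had the lowest log2 fold change of the group, -2.25 ± 0.83, with 18.9, 2.49 and 15.4 CPM in MSCs and 2.96, 0.781 and 4.05 CPM in EVs. Its MSC value in pig 2 lay below its EV values in pigs 1 and 3, so the groups overlapped. LSS, the lanosterol synthase, was the most highly read sterol enzyme with 11469 reads, and had 245, 127 and 348 CPM in MSCs against 103, 32.7 and 125 CPM in EVs. The groups of LSS met closely, at 127 CPM for the lowest MSC library and 125 CPM for the highest EV library, and the log2 fold change was -1.47 ± 0.55.

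Lanosterol is then trimmed and reduced to cholesterol. CYP51A1, which removes the first methyl group, had few reads, on a row covered over 97.98% of its span by another row. MSC replicates held 110, 24 and 73 of them and EV replicates 17, 20 and 18, for a log2 fold change of -1.82 ± 0.53. TM7SF2, a sterol reductase, had 29.7, 12.4 and 35.3 CPM in MSCs and 7.43, 5.00 and 7.49 CPM in EVs (log2 fold change -1.96 ± 0.44). MSMO1, the methyl sterol oxidase, had 44.1, 14.5 and 30.7 CPM in MSCs and 9.46, 6.48 and 10.0 CPM in EVs (log2 fold change -1.78 ± 0.44). All 3 had every EV library below every MSC library. DHCR7, the reductase of the last step, had 44.0, 33.98 and 52.4 CPM in MSCs and 11.9, 5.08 and 18.4 CPM in EVs, again without overlap, and a log2 fold change of -1.88 ± 0.46.

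The remaining late enzymes, HSD17B7 and SC5D, did not pass the thresholds. SC5D, the lathosterol desaturase, had 57.5, 9.09 and 42.2 CPM in MSCs and 17.7, 13.4 and 23.3 CPM in EVs, and like HMGCS1 it was higher in EVs than in cells for pig 2, by 0.53 on the log2 scale, and lower in the other pigs. HSD17B7, a ketosteroid reductase, was the only tested sterol enzyme with a log2 fold change above 0 (0.31 ± 0.38), on 30 to 68 reads per MSC library and 46 to 78 per EV library.

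**Figure D3:**
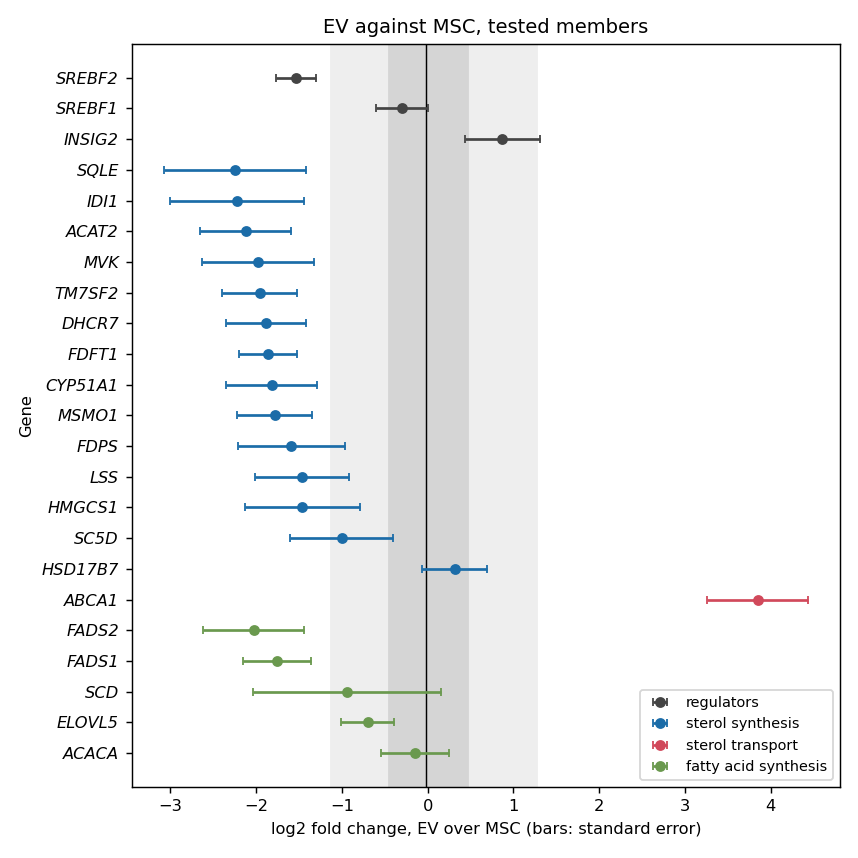
Log2 fold change of EVs over MSCs for the 23 tested genes, with bars for the standard error and colours for the role. The light grey band spans the 5th to 95th percentile of all 12392 entries (-1.13 to 1.27), the dark band the 25th to 75th (-0.45 to 0.47) and the vertical line the median. SREBF2, 12 sterol enzymes, FADS1 and FADS2 lie left of the light band, and ABCA1 lies far to its right.

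The sterol enzymes also shared an order among the pigs within each group of libraries. MSC replicate 2 had the lowest of the 3 MSC values in 14 of 14 tested sterol enzymes, against 46.0% of all entries. EV replicate 2 had the lowest EV value in 12 of 14, against 30.1% of all entries. The highest MSC value exceeded the lowest by a median of 3.34-fold over the sterol enzymes (1.54-fold for DHCR7 to 8.43-fold for HMGCS1), against 1.76-fold over all entries. The value over all entries was computed after adding 0.5 CPM, which lowers the ratios of little-read entries, and the value of the sterol enzymes was not, so the 2 are not strictly alike. SREBF2 itself varied by 1.19-fold among the MSC libraries. These libraries are single samples of each pig, and no test of the pigs was made.

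Within each pig the EVs still had less of most sterol enzymes than the cells. EVs were below the cells of the same pig for 13 of 14 enzymes in pig 1, 11 in pig 2 and 14 in pig 3, and in all 3 pigs for 11, against 24.3% of all entries. The median log2 ratio of the branch was -1.95 in pig 1, -1.23 in pig 2 and -1.67 in pig 3. Leaving out both libraries of pig 2, a choice made after seeing the data, placed 13 of the sterol enzymes past the thresholds in the lower direction. The share of all entries in that fit is not given here.

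Of the 4 sterol transport genes ABCA1 alone could be tested, and it was the 1 gene of the whole group past the thresholds in the higher direction. ABCA1 moves cholesterol out of cells onto lipid-poor apolipoproteins. It lies on chromosome 1 at positions 275740052 to 275862912 of susScr3, with no other row over it, and its reads numbered 41, 27 and 63 in MSCs against 269, 1195 and 442 in EVs. The groups did not overlap, at 3.18, 2.58 and 5.34 CPM in MSCs and 22.7, 93.3 and 44.7 CPM in EVs. The means were 3.70 ± 1.45 and 53.6 ± 36.1 CPM (SD, n = 3), a log2 fold change of 3.85 ± 0.59 or 14.4-fold. Pig 2, with the lowest ABCA1 in its cells, had the highest in its EVs, a log2 ratio of 4.93 against 2.66 and 2.95 in pigs 1 and 3. NPC2, which hands cholesterol over within lysosomes, had 1, 4 and 7 reads in MSCs and 3 in each EV library, too few for a comparison.

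Of the 9 genes of the fatty acid branch 5 were tested, and FADS1 and FADS2 were past the thresholds in the lower direction, against 3.57% of all entries. Log2 fold changes of the branch ran from -2.03 to -0.15 with a median of -0.94, which is the value of SCD, a gene whose pigs differed widely. EVs were below cells in all 3 pigs for 3 of 5 genes, against 24.3% of all entries.

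FADS1, the delta-5 desaturase of polyunsaturated fatty acids, was the most highly read gene of the whole group with 15688 reads. It had 370, 255 and 409 CPM in MSCs and 137, 52.6 and 115 CPM in EVs, without overlap, and a log2 fold change of -1.76 ± 0.40. FADS2, the delta-6 desaturase, was read only 19, 18 and 14 times in MSCs and 7, 2 and 3 times in EVs, so that its log2 fold change of -2.03 ± 0.59 rests on counts at or near the limit of detection in EVs. The FADS2 row is covered over 99.7% of its span by another row under the same symbol. ELOVL5, which lengthens polyunsaturated chains, had 51.5, 26.2 and 51.4 CPM in MSCs and 25.1, 24.5 and 29.8 CPM in EVs. The EV values were close to the MSC value of pig 2, the groups overlapped, and the log2 fold change was -0.70 ± 0.31.

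Genes of the synthesis of saturated and monounsaturated fatty acids were thinly covered. SCD, the stearoyl-CoA desaturase, was read 124, 15 and 91 times in MSCs and 6, 10 and 85 times in EVs. The pigs differed widely, with log2 ratios of -3.33, -0.60 and 0.15, and the log2 fold change of -0.94 ± 1.095 became -3.26 without EV replicate 3, when SCD also passed the thresholds. ACACA, the acetyl-CoA carboxylase that commits carbon to fatty acids, was read 104, 42 and 94 times in MSCs and 65, 99 and 48 times in EVs, with overlap and a log2 fold change of -0.15 ± 0.39. FASN, the fatty acid synthase, had 1 to 7 reads per library, ACLY, which supplies cytosolic acetyl-CoA, had 0 to 4, and ACSS2, an acetyl-CoA synthetase, had 5 to 13. Nothing could be said of these 3 at this coverage, and each of their rows is overlapped by another row over nearly its whole span.

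Adipocyte markers were looked up because the cells came from fat and could carry the same pathway. PLIN1 was at 0 reads in every library, ADIPOQ had 1 read in all and FABP4 had no row. As with THY1, a marker at 0 reads is not shown to be absent. Of the 6 markers 4 had reads, with a summed level of 1.34 to 18.1 CPM in MSCs and 13.6 to 25.2 CPM in EVs, nearly all of it from LPL, a lipase also made by other cells. LPL had 17.9, 1.15 and 11.1 CPM in MSC replicates 1, 2 and 3, lowest in the replicate in which the sterol enzymes were lowest. The part of such cells in the result was not tested. Endothelial markers summed to 9.67 to 16.7 CPM in MSCs and 1.64 to 6.59 CPM in EVs, nearly all from PECAM1, with VWF at 0 and CDH5 without a row, and their part in the lower sterol enzymes of EVs was not tested. Macrophage and leukocyte markers (48.7 to 51.1 CPM in MSCs, 45.2 to 63.7 CPM in EVs, CD163 and AIF1 at 0) and platelet and erythroid markers (1.87 to 3.16 and 0.760 to 2.83 CPM) overlapped between the groups. The first sum came nearly all from CD14, while PTPRC had 0.156 to 0.848 CPM and CSF1R 0.310 to 0.809 CPM over all libraries. The second came from GP9 alone, with PPBP, ITGA2B and HBB at 0 reads and PF4 and HBA1 without a row. Neither sum therefore stands for its cell type.

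Levels between genes were compared per length, on the deposited RPKM scale, and only over the 9 genes with no other row over them. In MSCs the order was SREBF2 (21.9 ± 4.19 RPKM, SD, n = 3), LSS (17.1 ± 8.48), ELOVL5 (10.5 ± 4.24), DHCR7 (7.39 ± 1.997), IDI1 (6.25 ± 3.89), TM7SF2 (4.32 ± 2.18), SC5D (3.80 ± 2.77), MVK (3.37 ± 2.27) and ABCA1 (0.232 ± 0.0975). Each gene overlapped with its neighbour in this order except MVK and ABCA1, which were apart. In EVs, ABCA1 reached 3.43 ± 2.53 RPKM, between LSS (6.01 ± 3.06) and DHCR7 (1.95 ± 0.930) and overlapping with both. SREBF2 kept the highest mean, 7.66 ± 1.58 RPKM, but overlapped with LSS and ELOVL5. MVK had the lowest mean in EVs, 0.829 ± 0.505 RPKM, and overlapped with IDI1, TM7SF2 and DHCR7.

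**Figure D4:**
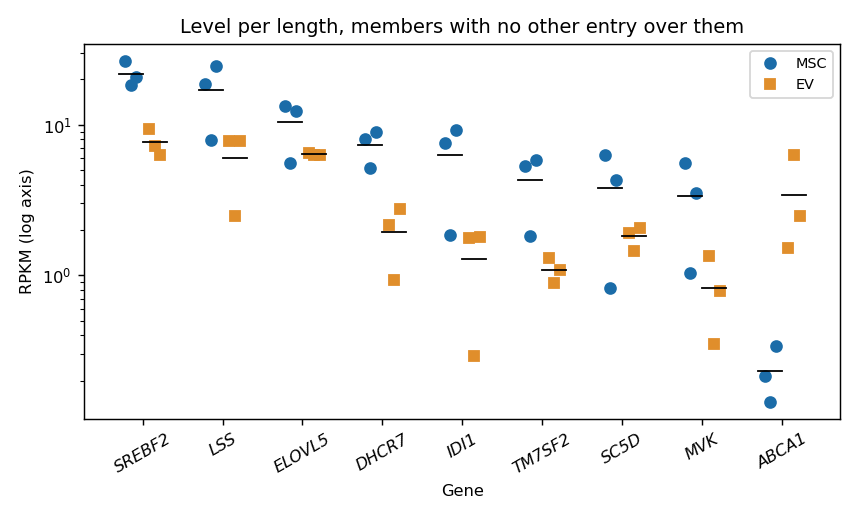
RPKM (log axis) of the 9 genes with no other row over them, in order of their mean in MSCs. Circles are the 3 MSC libraries, squares the 3 EV libraries, each in pig order, and lines the group means. All genes except ABCA1 have a lower mean in EVs, and ABCA1 is the lowest in MSCs.

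Genes of the same pathways outside the group were taken from lists by role, 66 genes in all, of which 55 had a row and 35 were tested. None passed the edgeR test after adjustment over all entries, and 6 (17.1%) had an unadjusted p-value under 0.05, near the 16% of all entries. Of these 6, 5 were also over 2-fold, 1 higher and 4 lower in EVs, against 5.55% and 3.57% of all entries. Blocking on the pig, 4 of the 35 genes passed, against 0.605% of all entries in the lower direction, and with DESeq2 also 4, against 1.50%. All were in the list of sterol synthesis and SREBP processing and all were lower in EVs. NSDHL and EBP were among these 4, out of 8 tested in that list.

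EBP, a sterol isomerase, was read 1269, 519 and 1245 times in MSCs and 331, 131 and 296 times in EVs (log2 fold change -1.90 ± 0.47, adjusted p of 0.219 in edgeR, 0.0218 with the block and 0.00842 in DESeq2). NSDHL, which works beside MSMO1 and HSD17B7 in removing methyl groups, had a log2 fold change of -1.54 ± 0.33 (adjusted p of 0.212 in edgeR, 0.0436 with the block and 0.00307 in DESeq2). Both were lower in EVs than in cells of the same pig in 3 of 3 pigs, and over all alternative fits their highest adjusted p was 0.630. EBP lies wholly within the span of another row of the table, as do MBTPS1, NR1H2 and MYLIP below, and LPIN1 is covered over 72.0% of its span.

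MBTPS1, the protease that makes the first cut in the SREBP precursor, was the most read gene of that list and did not pass any of the 3 tests. Its log2 fold change was -0.29 ± 0.29, with an adjusted p of 0.597 in edgeR.

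The branches that lead away from the sterol line had no gene past the adjusted threshold in edgeR with or without the block or in DESeq2. In the isoprenoid branches, 7 genes were tested with a median log2 fold change of -0.03, and NUS1 (dolichol synthesis) and PGGT1B (protein prenylation) were at 0.19 ± 0.30 and 0.35 ± 0.33. In the list of sterol efflux, storage and LXR, 11 genes were tested with a median of -0.19. NR1H2, which encodes an LXR receptor, was at -0.55 ± 0.33. MYLIP, an LXR-induced ubiquitin ligase, was read 324, 2188 and 792 times in MSCs and 2493, 3935 and 1027 times in EVs, higher in EVs in 3 of 3 pigs but with overlapping groups (log2 fold change 1.04 ± 0.73, adjusted p of 0.470 in edgeR). In the glycerolipid list, GPAM and LPIN1 were at 0.44 ± 0.41 and 0.21 ± 0.28.

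In the wider fatty acid list 7 genes were tested, with a median log2 fold change of 0.13. ACSL4, which activates arachidonic acid and similar chains, was read 5450, 2435 and 3441 times in MSCs and 9800, 12374 and 4214 times in EVs. It was higher in EVs in 3 of 3 pigs and over 2-fold at an unadjusted p-value under 0.05 (log2 fold change 1.23 ± 0.39), and its adjusted p was 0.249 in edgeR, 0.147 with the block and 0.0561 in DESeq2. Without MSC replicate 3 ACSL4 was no longer past the unadjusted thresholds. HSD17B12, which reduces the intermediates of chain elongation, was at -0.22 ± 0.23.

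The small RNA libraries were searched for 13 miRNAs known to bind ABCA1 or lipid genes, since miR-33a lies within an intron of SREBF2. No entry was found for miR-33a, miR-33b, miR-223 or miR-106b, and miR-144 was at 0 in all 6 libraries. EV libraries of small RNA were shallow, at 656888, 19454 and 18374 counts against 9455607 to 15395871 in MSCs, so that a miRNA without a count may still reach 4.57, 154 and 163 CPM in these EV libraries. The replicate numbers of the small RNA libraries are names only and were not matched to the mRNA libraries, and no test was made.

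miR-148a-3p, which targets ABCA1 in other systems, took 0.496%, 1.03% and 0.366% of the counts in MSCs and 23.4%, 21.96% and 0.457% in EVs. Wilson 95% intervals in EVs were 23.3% to 23.5%, 21.4% to 22.6% and 0.369% to 0.566%, from 153815, 4272 and 84 counts. Its share was thus high in EV replicates 1 and 2, while EV replicate 3 lay within the range of the MSC libraries. The other arm of the same precursor, miR-148a-5p, did not share the rise. It had 208, 213 and 197 CPM in MSCs and 0, 0 and 109 CPM in EVs, the last from 2 counts. Why the arms differ was not tested. miR-27b-3p had 18748, 20820 and 3296 CPM in MSCs and 4643, 2673 and 9796 CPM in EVs, and miR-26a had 15927, 14392 and 4412 CPM in MSCs and 2628, 308 and 30368 CPM in EVs. Both overlapped between the groups, as did miR-27a, miR-128, miR-185, miR-106a and miR-758. The value of miR-26a in EV replicate 2 rests on 6 counts.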

How the data were processed

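The study describes MSCs and EVs of 3 pigs, profiled by mRNA sequencing and small RNA sequencing. The titles do not show whether the same animals served both assays. For mRNA, the authors deposited raw read counts per gene with gene length and the RPKM they computed from them. Per the labels and the methods of the study, reads were aligned with TopHat to the pig build susScr3 and counted per gene, with featureCounts named in the methods and HTSeq in the submitters' processing notes. The labels name a stranded total RNA kit and the methods a TruSeq RNA kit, so whether strand was used in counting is unclear. For small RNA, the authors deposited expected counts per miRNA made with CAP-miRSeq, in which reads matching several precursors are shared in fractions. CPM was computed here from those counts. The normalized miRNA table was not used.

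Of 29661 mRNA rows, 3 with shifted columns were left out. Symbols were matched for 16140 rows. The EV and MSC groups were fitted in R 4.3.3 by edgeR 4.0.16 (filterByExpr, TMM, quasi-likelihood test, Benjamini-Hochberg adjustment over 12392 entries), unpaired as in the study. The call required a fold change over 2 and a p-value under 0.05. Pig ratios used CPM plus 0.5. Alternatives were DESeq2 1.42.0, other scalings, no filter, the pig as a block, summed rows per symbol, limma 3.58.1 on RPKM plus 1 or 0.1, removal of the length trend, and leaving out libraries. Only the main edgeR fit was tested on simulated data, with 200 entries changed. After adjustment it recovered 37.5% of changes of 4-fold and 89.5% of changes of 16-fold. A gene not past the adjusted threshold may therefore still differ.

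The mRNA libraries were paired by the number shared in their titles, taken to be the pig. Deviations from the group means correlated at 0.258, 0.386 and 0.411 within pigs and at -0.362 to -0.0422 between pigs. Such deviations cancel within each group, so the negative values between pigs are not independent of the positive ones within pigs. The genes and lists were chosen with earlier results of these data known. Values per library are given for every regulator, for each gene past the unadjusted thresholds and for the 3 most read genes of each role. Genes outside the group are named where past those thresholds or among the 2 most read of their list, and 3 such genes are not reported here. HSD17B7, SC5D, HMGCS1, SCD, FASN, ACLY, ACSS2 and NPC2 were described to complete the group. A few libraries or genes singled out in the text were chosen after their values were seen. Intervals and the limit of 3 counts cover counting error only. Sequences and a planned promoter motif search were not analysed here.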

Additional observations from a re-analysis of the deposited data

How the results depend on the processing

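The count of sterol synthesis genes lower in EVs (11) ranged from 7 to 13 when each library was left out in turn, lowest without MSC replicate 1 or MSC replicate 3 and highest without MSC replicate 2, and the count over the whole group (14) ranged from 10 to 16. The shares of all entries in these fits are not given, so the counts have no background beside them. No gene of the group passed the adjusted threshold in edgeR, with DESeq2 9 were lower and 1 higher, and with the pig as a replicate block 10 were lower and 1 higher. Of the pathway genes outside the group 0 passed after adjustment, 4 with DESeq2 and 4 with the replicate block. Those higher in EVs by the unadjusted thresholds numbered 1, 2 with the replicate block, and 0 to 2 when a library was left out. The median log2 fold change of sterol synthesis (-1.84) was -1.13 with limma on log2(RPKM + 1), a scale that compresses low levels, and -2.10 to -1.47 when a library was left out. The median of the fatty acid genes (-0.94) was -0.72 without the low-count filter, -1.44 with the replicate block and -1.20 with the length trend removed. It was -0.23 with limma on log2(RPKM + 1) and -1.41 to -0.65 when a library was left out. In the main fit, with the block and with the length trend removed, this median was the value of SCD alone. With limma on log2(RPKM + 1) it was the value of FADS2. It therefore follows single genes and says little of the branch. Of 368 log2 fold changes of the 23 tested genes of the group over the alternatives, 332 moved by less than the SD of the 3 pig ratios and 36 by more, and 1 changed sign (ACACA, 0.0034 without MSC replicate 1). Of 224 values of 14 genes outside the group, 8 newly passed the adjusted threshold and 5 reversed, the latter in 3 genes that passed no threshold. MBTPS1 (-0.29) reached 0.0064 without MSC replicate 2, in a range of -0.43 to 0.0064 over single libraries left out. NUS1 (0.19) was at -0.025 with the length trend removed and -0.039 without both libraries of pig 2, and ranged from -0.049 (MSC replicate 2 left out) to 0.37 (MSC replicate 1 left out). LPIN1 (0.21) was at -0.12 with the length trend removed. Low counts limit FASN, ACLY, ACSS2 and NPC2, whose rows are almost wholly covered by other rows. Whether depth or this overlap keeps those counts low was not tested. Rows that overlap also limit 14 tested genes.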
